A study of Rattus norvegicus with 10 samples.

Results

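Single-exon autosomal features were followed in 10 RNA-seq libraries of fetal rat brain, made from the right side of the cerebral cortex on embryonic day 21 in the Sprague Dawley strain. A feature is 1 Ensembl rat gene identifier with its listed exons, and a single-exon feature is one whose start field holds 1 position. Of 26404 listed features, 25185 lay on chromosomes 1 to 20, and 4458 of these (17.7%) were single-exon features kept here. The rule also leaves out 10 features by identifier, 6 of which were single-exon and autosomal. Taking instead every feature whose exons merge to 1 interval added none to the 4458. Length, position, strand, count, CPM (a library's counts scaled to the same summed total in every library) and RPKM (CPM per kilobase of listed length) were the measurements at hand.

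The dams had received oxytocin at 100 mcg per kg intravenously, or saline in the same volume, and the cortex was taken 24 h later. Each group held 5 pups from 5 dams, so a library stands for 1 fetus of 1 litter. Oxytocin makes the uterus contract, and the study asked what maternal oxytocin left behind in the fetal cortex. No genetic alteration is named for either group, and both groups share 1 strain, age and tissue; the labels do not give the sex of the fetuses. RNA was selected with oligo-dT, which keeps polyadenylated RNA, so transcripts without a poly(A) tail are poorly captured in all 10 libraries. Summed assigned counts ranged from 18723390 to 30404127 in the oxytocin libraries and from 18555172 to 20776414 in the saline libraries.

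Genes without introns are a mixed class in mammals. Olfactory receptors have a coding region held in 1 exon and sit in large chromosomal clusters that are read mainly in the nose. Replication-dependent histone genes lack introns and end in a stem-loop in place of a poly(A) tail. Clustered protocadherins of the alpha and gamma type carry long variable exons in tandem, which some annotations list as separate genes. Small nuclear, nucleolar and microRNA genes are short, often lie inside introns of other genes, and many of their products are not polyadenylated. Retrotransposed copies of spliced genes also lack introns, and reads can be hard to assign between such a copy and its parent. None of the tables used here pairs an Ensembl rat identifier with a symbol (0 of 4458 matched). The members are therefore described by position and structure in Rnor_5.0, the build in the submitters' processing notes, and no gene family is assigned to any of them. For the same reason the tissue could not be checked against marker genes.

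Most single-exon features had no counts at this depth. In 2694 of 4458 (60.4%) no read was counted in any of the 10 libraries, 1047 were counted in some libraries, and 717 (16.1%) were counted in all 10. Multi-exon autosomal features gave 14.7% without a count and 69.2% counted in all 10 (n = 20717). In a single library 1024 to 1122 members had at least 1 count, or 23.9% ± 0.84 (SD, n = 5) of members after oxytocin and 23.7% ± 0.57 (SD, n = 5) after saline, against 76.5% ± 1.03 and 76.0% ± 0.27 of multi-exon features. Thinning each library to 18555172 counts left 1015 to 1033 members after oxytocin and 1023 to 1071 after saline, and the groups overlapped. A count of 0 over all 10 libraries allows up to 3 counts, or 0.0141 CPM, which covers counting error only. The libraries carry no molecular identifiers, so a read is not an independent molecule, and this limit does not show that a feature was unused in every cell.

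Detection varied with listed length. Listed lengths ran from 26 to 6366 bases with a median of 510, against a median of 1676 for multi-exon features, and were grouped as under 200, 200 up to 500, 500 up to 900, 900 up to 1000, and 1000 bases and over. The first and the fourth class held most members. Members shorter than 200 bases numbered 1574, and 70.3% of them had no count in any library, against 51.0% of 153 multi-exon features of that length. The 1236 members of 900 up to 1000 bases were quieter still, with 86.3% uncounted and 2.91% counted in every library. Multi-exon features of that same length gave 34.2% uncounted and 39.5% counted in every library (n = 913). In 1224 of the 1236 the length is a multiple of 3, as the lengths of coding sequences without untranslated parts are. At 200 up to 500 bases, 38.5% of 637 members were uncounted, against 47.7% of multi-exon features of that length. At 500 up to 900 bases 34.5% of 412 members were uncounted, against 28.9% of multi-exon features. At 1000 bases and over 22.4% of 599 members were uncounted, against 6.69% of multi-exon features. Of that last class 58.9% of members were counted in every library, against 82.5% of multi-exon features. No test was run on these shares.

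**Figure D1:**
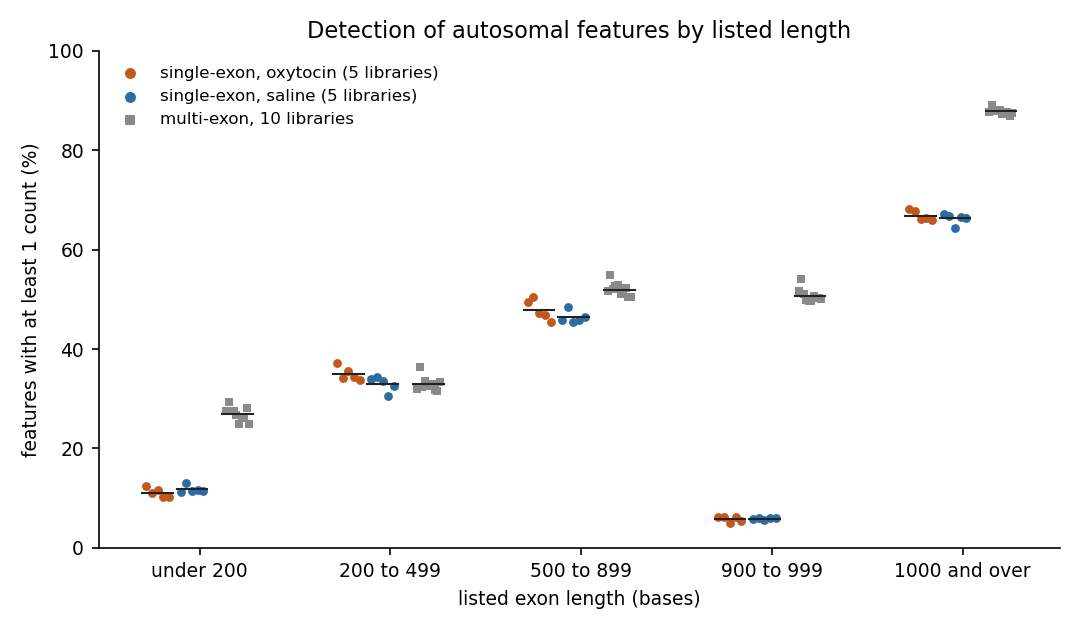
Percent of autosomal features with at least 1 count (vertical axis) in each listed length class (horizontal axis); each point is 1 library and each line a mean. Single-exon features of 900 up to 1000 bases sat between 5.02% and 6.23% in all 10 libraries, while multi-exon features of the same length sat between 49.7% and 54.1%.

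In the plot of detection by length, which is not adjusted for depth, the ranges of the 2 treatment groups overlap in every class. At equal totals of 18555172 counts they did not overlap for members under 200 bases, of which 155 to 168 were detected after oxytocin and 172 to 196 after saline. In the other 4 classes they overlapped at equal totals too. So did multi-exon features at equal totals, with 15598 to 15787 detected after oxytocin and 15617 to 15772 after saline. The summed level of members under 200 bases also overlapped, at 141 to 148 CPM after oxytocin and 142 to 157 CPM after saline. Members of 900 up to 1000 bases were detected at 5.78% ± 0.56 after oxytocin and 5.81% ± 0.14 after saline, and those of 1000 bases and over at 66.8% ± 1.02 and 66.3% ± 1.06 (SD, n = 5 each).

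Members without counts often lay together on the chromosomes. A run is a set of single-exon features with no other listed feature between them, and the 4458 members formed 2772 runs, of which 27 held 10 or more. Those 27 runs held 441 members, 21 of the runs had a median length of 900 up to 1000 bases, and 13 gave 0 counts in all. Of the members that stood alone 21.9% were counted in every library, against 3.17% of those in runs of 10 or more. The length classes differed in this. Among members of 900 up to 1000 bases, 15.8% of the 158 standing alone were counted in every library, and 0 of the 280 in long runs. At 500 up to 900 bases the shares were 40.3% of 253 alone and 15.0% of 20 in long runs, and at 1000 bases and over they were 61.0% of 341 and 30.0% of 10. From 200 up to 500 bases the order was the other way, at 18.5% of 389 alone and 72.7% of 11 in long runs. That order rests on 1 run at chr17:58612831-58708259, which held 9 of the 11 and all 8 that were counted in every library. Under 200 bases 5.05% of 931 alone and 0 of 120 in long runs were counted in every library. A run of 22 members at chr1:176590571-176981745 gave 0 counts. One of 32 members at chr3:109319738-110153480 gave 59 counts, and 58 of them fell on a single member. Clusters of intronless receptor genes have this layout in rodents, but these runs were not identified.

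Long runs of short members also gave few counts. The run with the most members lay at chr6:142873602-143061262, with 47 members of 72 to 137 bases, of which 24 had at least 1 count and 0 were counted in every library (144 counts in all). A run of 29 short members at chr17:73463196-73507196 gave 0 counts. The run of 28 at chr1:122305174-124157140, 26 of them under 200 bases, carried 110025 counts, of which all but 3567 fell on 1 member of 1615 bases.

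Few members carried most of the signal. Single-exon features took 1.70% ± 0.020 of assigned counts after oxytocin and 1.74% ± 0.059 after saline (mean and SD, n = 5 in each group). The libraries ranged from 1.69% to 1.73% and from 1.68% to 1.84%, so the groups overlapped, and each library's Wilson 95% interval reached at most 0.0061 percentage points to either side, which covers counting error only. The single most counted member held 4.43% of all counts on members, the first 10 held 29.7% and the first 100 held 74.95%. It took 31 members to reach 50% of these counts and 214 to reach 90%. At the other end 852 members had 1 to 9 counts over all 10 libraries, and 362 of them had 1. Mean level passed 100 CPM in 33 members, 10 CPM in 263 and 1 CPM in 506.

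The most counted member was a 2238-base feature on the minus strand at chr8:62760799-62763036. Its level was 691, 732, 738, 766 and 838 CPM after oxytocin and 714, 783, 817, 725 and 872 CPM after saline. The groups overlapped and each was highest in library 5. The second was a 2811-base feature at chr6:79532855-79535665, at 496, 716, 664, 612 and 683 CPM after oxytocin and 500, 721, 757, 525 and 730 CPM after saline. Here oxytocin library 1 and saline libraries 1 and 4 stood lower than the other 7. The third, a 1657-base feature at chr3:124462790-124464446, differed little between libraries, at 594 ± 25.3 CPM and 608 ± 14.5 CPM (SD, n = 5 each), and lies inside an intron of a gene on the other strand.

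Of the next 5, a 2015-base feature at chr6:55343074-55345088 had 425, 583, 530, 476 and 551 CPM after oxytocin and 486, 656, 610, 630 and 673 CPM after saline. Its oxytocin mean lay below its saline mean by -0.22 on the log2 scale (SE 0.094, n = 5 each; edgeR quasi-likelihood test, unadjusted p = 0.033, adjusted p = 0.9997), and the groups overlapped. A 1615-base feature at chr1:124119141-124120755 reached 632 CPM in oxytocin library 1 and 444 to 472 CPM in the other 4, and had 618, 479, 392, 516 and 471 CPM after saline. A 1569-base feature at chr13:100036034-100037602 had 394, 551, 525, 474 and 547 CPM after oxytocin and 405, 542, 558, 351 and 561 CPM after saline. The same 3 libraries, oxytocin 1 and saline 1 and 4, were the highest for the chromosome 1 feature and the lowest for the chromosome 13 feature. The remaining members of this group were a 1111-base feature at chr15:69146646-69147756 with 454 CPM and a 1502-base feature at chr18:15548085-15549586 with 422 CPM, both means over 10 libraries.

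**Figure D2:**
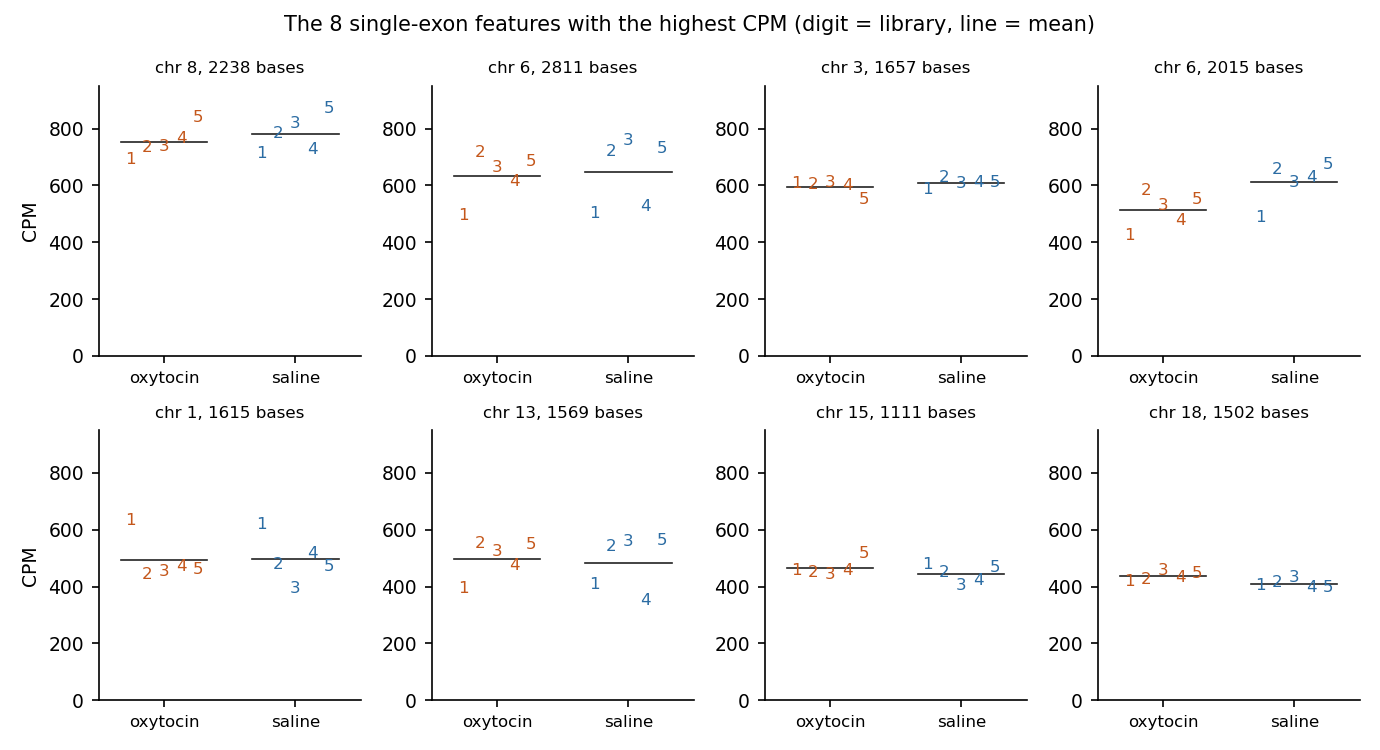
Level in CPM (vertical axis) of the 8 single-exon features with the highest mean, 1 panel each, by group (horizontal axis); digits mark the replicate number of the library and lines the group means. Oxytocin 1, saline 1 and saline 4 stand low in the panels of the 2811-base feature on chromosome 6 and of chromosome 13, and high in that of chromosome 1, and the groups overlap in all 8 panels.

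Per kilobase of listed length the order changed. The highest RPKM was that of the 1111-base feature on chromosome 15, at 408 RPKM, and the 1657-base feature on chromosome 3 came next at 363 RPKM. A 909-base feature at chr17:9112369-9113277 had 362 RPKM, far above others of 900 up to 1000 bases, the next of which by CPM was a 975-base feature at chr10:20494823-20495797 with 117 RPKM. A 294-base feature at chr7:55624344-55624637 led the members of 200 up to 500 bases with 269 RPKM, and a 591-base feature at chr6:43473992-43474582 those of 500 up to 900 bases with 229 RPKM. Among members shorter than 200 bases, a 165-base feature at chr7:75948335-75948499 led with 176 RPKM, or 28.6 ± 1.06 CPM after oxytocin and 29.6 ± 1.62 CPM after saline (mean and SD, n = 5 in each group). Over members counted in all 10 libraries the median was 5.19 RPKM, against 10.04 RPKM for multi-exon features counted in all 10. The members of 900 up to 1000 bases that were counted in all 10 had a median of 5.15 RPKM, beside 5.19 RPKM for the whole set.

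The densest stretch of steadily counted members lay on chromosome 18. Chosen after the number of members per megabase counted in every library was seen, the window chr18:29648344-30606131 held 42 members. Of these, 41 were on the plus strand and 40 had at least 2000 bases. In all 10 libraries 40 of the 42 were counted, a share that the choice itself favours. The median over the window was 11.0 CPM and 4.70 RPKM. The highest, a 2592-base feature at chr18:30594347-30596938, had 44.6, 53.6, 46.5, 40.5 and 41.6 CPM after oxytocin and 44.8, 48.3, 48.5, 54.8 and 45.1 CPM after saline. In contrast, a 2457-base feature at chr18:29992749-29995205, with neighbours of like length counted in every library, had 3 counts in all. Summed over the window, the level was 534 ± 21.5 CPM after oxytocin and 523 ± 17.8 CPM after saline (mean and SD, n = 5 in each group), with ranges of 514 to 565 and 501 to 542 that overlap.

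**Figure D3:**
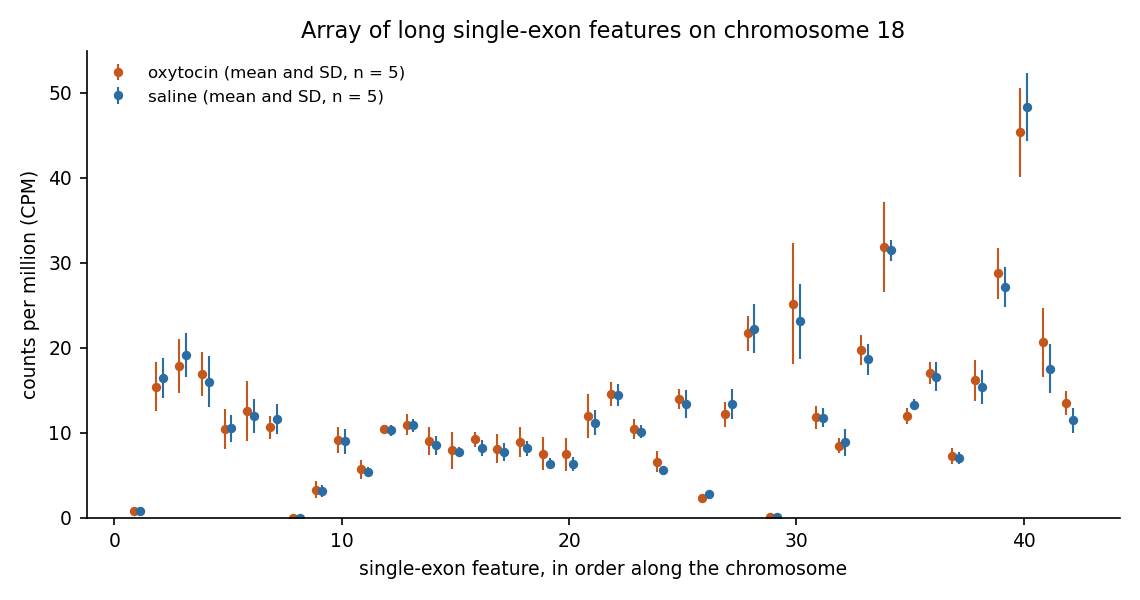
Level in CPM (vertical axis) of the 42 single-exon features of the chromosome 18 window, in their order along the chromosome (horizontal axis); points are group means and bars the SD over 5 libraries. Most members lie near the median of 11.0 CPM, the highest has a mean of 46.8 CPM, and the oxytocin and saline points lie close together along the row.

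Of the 40 members of this window that entered the test, 31 had a fitted log2 fold change above 0 and 9 below, where 6944 of all 14400 features tested were above 0 and 7456 below, with a median log2 fold change of 0.075 against -0.0031 over all features tested. These are neighbouring members of the same libraries and share their deviations. One of the 40, against 3.57% of all features tested, had an unadjusted p under 0.05, a 2587-base feature at chr18:30603545-30606131 (log2 fold change 0.26, edgeR adjusted p = 0.9997). On chromosome 17, 2 stretches of shorter members were also chosen by the number counted in every library, and their levels were low. Their shares counted in every library are therefore not a separate finding. The first, chr17:45279292-45677932, held 16 members with a median length of 411 bases, of which 13 were counted in all 10 libraries, and summed to 5.74 ± 0.58 CPM after oxytocin and 5.26 ± 0.80 CPM after saline (mean and SD, n = 5 in each group). The second, chr17:58030754-58950698, held 28 with a median length of 393 bases, 13 counted in all 10 and 6 without a count, and summed to 8.60 ± 1.53 and 8.28 ± 1.47 CPM (SD, n = 5 each). Both overlap between groups.

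Chromosomes differed in how many members were counted in every library, from 9.23% of 130 on chromosome 20 to 41.7% of 127 on chromosome 18, where the window above lies. Chromosome 1 held the most members, 733, and 69.0% of them had no count.

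Many short members lie inside other genes. Of the 1574 members under 200 bases, 308 lay in an intron of a feature on the same strand, 174 in an intron of a feature on the opposite strand, 136 overlapped a listed exon and 956 lay outside any other listed feature. In same-strand introns, detection went with the level of the host gene. At least 1 count was found for 5.56% of 36 short members whose host had up to 1 CPM, 13.7% of 73 at 1 to 10 CPM, 47.0% of 132 at 10 to 100 CPM and 59.7% of 67 above 100 CPM. Opposite-strand introns gave the same order, at 3.45% of 29, 38.1% of 42, 43.2% of 74 and 55.2% of 29. How strand was handled in counting is not given in the sources used here, so reads of the short member and of unspliced host RNA cannot be told apart.

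A few features show how far single fetuses can stand apart. Of the members with 0 counts in some library and at least 50 in another, there were 2. A 3170-base feature at chr13:110058379-110061548 had 12, 60, 69, 13 and 44 counts after oxytocin and 56, 71, 47, 0 and 52 counts after saline. It was lowest in saline library 4 and next lowest in oxytocin 1 and 4. A 723-base feature at chr8:107532472-107533194 had 43, 2, 0, 0 and 0 counts after oxytocin and 24, 0, 0, 96 and 0 after saline, so nearly all its counts came from saline 4, oxytocin 1 and saline 1. A further member, a 2390-base feature at chr2:164587785-164590174, had the largest spread among members above 2 on the log2 CPM scale, with a within-group SD of 0.88. Its level was 12.0, 4.10, 7.92, 8.80 and 6.36 CPM after oxytocin and 13.5, 10.3, 5.93, 42.1 and 7.06 CPM after saline, highest once more in saline 4, saline 1 and oxytocin 1.

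These 3 libraries, noticed in the values and belonging to both treatment groups, were counted over the set. They were together the 3 lowest or the 3 highest of the 10 in 41 of 263 members above 10 CPM (15.6%) and in 9 of 33 above 100 CPM (27.3%). Over all tested features the shares were 12.8% of 9751 and 16.1% of 2376. The features on chromosomes 6, 1 and 13 in which the 3 libraries were first noticed are among those counted, and without them the shares of members were 38 of 260 (14.6%) and 6 of 30 (20.0%). The labels name 1 sequencing run for all libraries, and what these 3 libraries share was not tested.

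Spread between fetuses was compared within steps of 2 on the log2 CPM scale, since low counts vary more. From -2 to 0 the median within-group SD was 0.404 for members and 0.428 for multi-exon features, and from 0 to 2 it was 0.271 and 0.285. From 2 to 4 the medians were 0.198 and 0.161, from 4 to 6 they were 0.115 and 0.104, and from 6 to 8 they were 0.106 and 0.083. Within the oxytocin libraries the ratios of members to multi-exon features in these steps were 1.07, 1.05 and 1.06. Within the saline libraries they were 1.16, 1.15 and 1.38. In the top step, from 8 to 10, 14 members had a median SD of 0.147 and 595 multi-exon features 0.081, a ratio of 1.82. That ratio was 1.58 within the oxytocin libraries, 1.85 within the saline libraries and 1.44 on edgeR's dispersion scale. Of these 14 members 9 lay above the upper quartile of the multi-exon features of that level, and the features of chromosomes 6, 1 and 13 described above are among the 14. No test was run on this difference, as 14 features of the same 10 libraries are not independent.

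**Figure D4:**
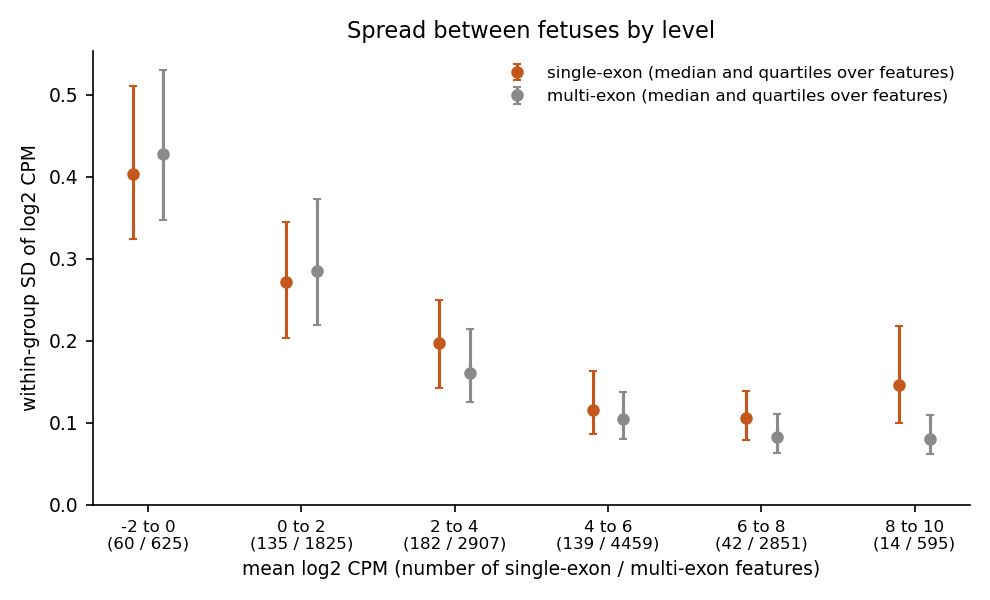
Within-group SD of log2 CPM between fetuses (vertical axis) for single-exon and multi-exon features in steps of mean level (horizontal axis, with the number of features); points are medians and bars the quartiles over features. The single-exon median is below the multi-exon median in the 2 lowest steps and above it in the other 4, and in the top step the single-exon median is 0.147 against 0.081.

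Oxytocin against saline gave no call among single-exon features. The test was edgeR's quasi-likelihood test over all 14400 features with enough counts, and a call needed a Benjamini-Hochberg adjusted p under 0.05. Of the 4458 members 572 entered it, and 0 passed, with a smallest adjusted p of 0.9997 (background over all features tested, 0%). Limma also called 0 of 572, with 24 at an unadjusted p under 0.05. DESeq2 called 0 and had 21, but its independent filtering left an adjusted p for 30 members, so its 0 says nothing of the others. At an unadjusted p under 0.05 there were 24 members (4.196%), against 3.57% of all features tested. By direction, 13 members (2.27%) were higher after oxytocin and 11 (1.92%) lower, against 1.93% and 1.64% of all features. With scaling by library size alone the split was 10 higher (1.75%) and 16 lower (2.80%), against 1.16% and 3.42% of all features under that scaling, with the median of all features shifted to -0.029 on the log2 scale. The shares of members were near those of all features.

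Fold changes of members were small. Their median log2 fold change was -0.0006, against -0.0031 over all features tested, the quartiles were -0.069 and 0.094, and 285 of 572 were above 0. The median standard error was 0.12, against 0.080 over all features. By length, medians ran from -0.023 for the 107 tested members of 500 up to 900 bases to 0.054 for the 45 under 200 bases. A log2 fold change beyond 1 in size was found in 2 of 572 members and in 17 of all 14400 features, and each of the 2 members came below 1 in size when a single library was left out.

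**Figure D5:**
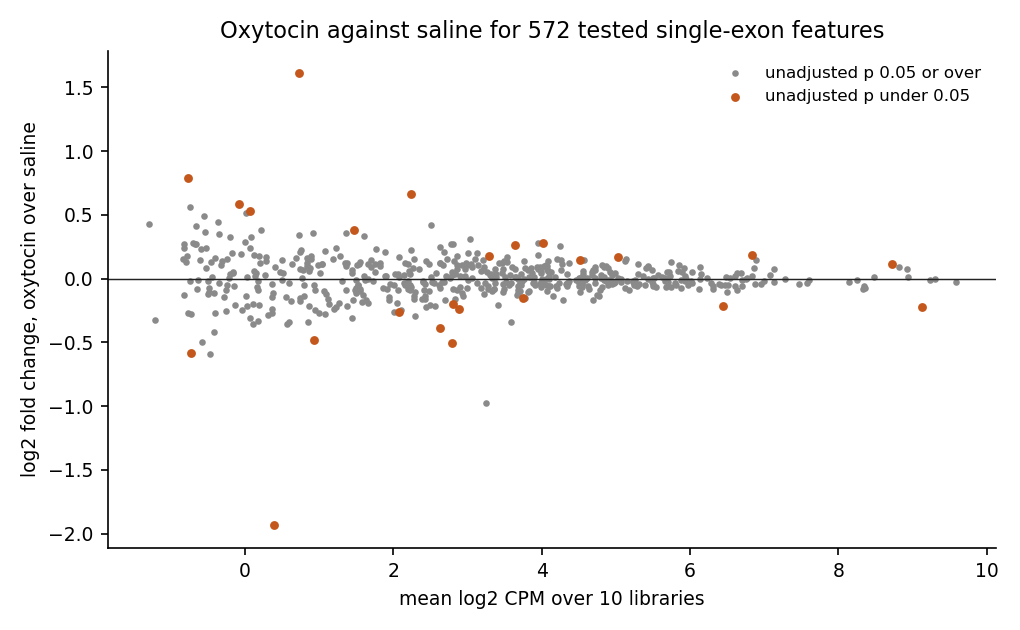
Log2 fold change of oxytocin over saline (vertical axis) against mean log2 CPM (horizontal axis) for the 572 single-exon features that entered the test; orange marks an unadjusted p under 0.05. The 24 orange points lie on both sides of 0, and the 2 beyond 1 in size have low means.

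Among members with a higher mean after oxytocin, the smallest unadjusted p was that of ENSRNOG00000047085, a 1545-base feature at chr18:27725459-27727003 within an intron of a gene on the other strand. It had 32.8, 35.0, 35.7, 34.4 and 33.4 CPM after oxytocin and 30.2, 31.3, 32.7, 31.3 and 29.7 CPM after saline. Every oxytocin library lay above every saline library, by a narrow margin (log2 fold change 0.17, SE 0.047, edgeR unadjusted p = 0.0033, adjusted p = 0.9997). It was the only tested member whose groups did not overlap with oxytocin higher (0.175%), against 0.375% of all features tested, and 0 members did so with oxytocin lower, against 0.326% of all. ENSRNOG00000049722, a 1995-base feature at chr3:69348272-69350266, had 3.26, 3.14, 3.38, 2.54 and 2.78 CPM after oxytocin and 2.74, 2.36, 2.18, 2.14 and 2.43 CPM after saline. The groups overlapped (log2 fold change 0.38, SE 0.13, edgeR unadjusted p = 0.012, adjusted p = 0.9997).

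The 1502-base feature on chromosome 18, eighth in level, had 419, 426, 457, 430 and 446 CPM after oxytocin and 405, 414, 432, 397 and 398 CPM after saline. The groups overlapped, since saline library 3 lay above oxytocin libraries 1, 2 and 4 (log2 fold change 0.12, SE 0.040, edgeR unadjusted p = 0.013, adjusted p = 0.9997). DESeq2 gave this feature an adjusted p of 0.37. A 645-base feature at chr6:97714711-97715355 had 3.95, 1.77, 1.08, 8.75 and 1.12 CPM after oxytocin and 1.02, 0.529, 1.52, 0.642 and 1.83 CPM after saline. Its log2 fold change of 1.61 (SE 0.57, edgeR adjusted p = 0.9997) became 0.90 without oxytocin library 4.

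Among members with a lower mean after oxytocin, ENSRNOG00000010972 is a 792-base feature at chr2:251308041-251308832. It had 4.90, 7.04, 5.63, 6.31 and 5.02 CPM after oxytocin and 6.20, 11.6, 8.56, 8.40 and 6.95 CPM after saline, which overlap (log2 fold change -0.50, SE 0.16, edgeR unadjusted p = 0.0075, adjusted p = 0.9997). ENSRNOG00000002568, a 639-base feature at chr10:3782936-3783574, had 1.91, 1.41, 1.44, 1.37 and 1.44 CPM after oxytocin and 2.29, 2.21, 2.03, 1.82 and 2.48 CPM after saline. Only oxytocin library 1 reached into the saline range (log2 fold change -0.48, SE 0.15, edgeR unadjusted p = 0.0077, adjusted p = 0.9997).

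A 4152-base feature at chr4:26377857-26382008 had 76.1, 81.6, 85.2, 76.5 and 80.3 CPM after oxytocin and 83.4, 88.8, 95.5, 116 and 89.1 CPM after saline. Its log2 fold change of -0.22 (SE 0.081, edgeR unadjusted p = 0.018, adjusted p = 0.9997) became -0.13 without saline library 4. A 1080-base feature at chr2:205250196-205251275 had 2.20, 0.322, 1.08, 0.560 and 0.427 CPM after oxytocin and 3.35, 1.73, 0.456, 12.6 and 0.755 CPM after saline. Saline library 4 held the high value, and the log2 fold change of -1.93 (SE 0.79, edgeR adjusted p = 0.9997) became -0.68 without it. Cortex holds many cell types, and in bulk RNA a change in the number of cells cannot be told apart from a change in RNA per cell.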

How the data were processed

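Per the submitters' processing notes, the tools were bcl2fastq, STAR 2.0.4b, Subread and featureCounts 1.45 with build Rnor_5.0. Strand, overlap and multi-mapped reads are not given in the sources used here. The deposited count column holds whole read counts per feature. The deposited CPM equals the count scaled by the library's summed count to the same total in each library, and the deposited RPKM equals CPM per kilobase of listed length, both tested on every feature.

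Features passing filterByExpr were fitted over all 10 libraries with edgeR 4.0.16 in R 4.3.3 (TMM, glmQLFit, no covariates). The standard error is the log2 fold change over the square root of F. Log2 CPM used a prior count of 2. Detection, shares and spread were described without a test. The script was tested on simulated data. Alternatives were DESeq2 1.42.0, limma 3.58.1, other scalings, no filter and leaving out each library.

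Named were members with the 4 smallest p in each direction, the 8 highest CPM, the 4 highest RPKM of at least 200 bases not already named, the 4 largest spreads above 2 on the log2 CPM scale and up to 4 per length class. Gene lists by symbol could not be applied. Length classes, runs, windows, intron sets, the on-off criterion and the features singled out in them were chosen after values were seen, and members and lists with earlier results of these data known. The numbering of replicates follows the order of deposit. Libraries of one group differed beyond the noise of read sampling in all 20 pairs. That noise covers counting error only, and each library is a separate fetus.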

Additional observations from a re-analysis of the deposited data

Results flagged for a closer look

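In 82 checks within groups of 5 libraries, covering the 36 named members and 5 summed or counted measures in both groups, 8 had 1 library whose gap to its nearest neighbour over the group's range exceeded Dixon's 95% critical value. Chance flags about 1 in 20 groups, but some of these members were named for a large spread or a small p and all checks share the same libraries, so the count is not set against that rate. Among oxytocin libraries, the 639-base feature on chromosome 10 was highest at 1.91 CPM against 1.37 to 1.44 in the others (gap 0.872 of the range). The 1657-base feature on chromosome 3 was lowest at 549.5 CPM against 599 to 609 (0.821). The 1615-base feature on chromosome 1 was highest at 632 CPM against 444 to 472 (0.850), and a 932-base feature at chr1:71626810-71627741 was highest at 88.1 CPM against 54.2 to 59.0 (0.856), both in oxytocin library 1. The 1111-base feature on chromosome 15 was highest at 515 CPM against 442 to 457 (0.799), in oxytocin library 5. Among saline libraries, the 1080-base feature on chromosome 2 was highest at 12.6 CPM against 0.456 to 3.35 (0.762), and the 2390-base feature on chromosome 2 at 42.1 CPM against 5.93 to 13.5 (0.790), both in saline library 4. The 909-base feature on chromosome 17 was highest at 456 CPM against 281 to 328 (0.734), in saline library 5.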

How the results depend on the processing

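The count of members called stayed at 0 under limma, both other scalings, no filter and each of 10 fits without 1 library. DESeq2 also gave 0, but had an adjusted p for only 30 of 1764 members. Members at an unadjusted p under 0.05 numbered 24, then 51 without the filter, when 1764 were tested (2.89%, against 3.59% of all 20274 features), and 18 to 29 without 1 library. Detection fell from 23.8% to 15.0% when at least 5 counts were asked. The share of counts was 1.72%, or 1.90% of autosomal counts and 1.21% without the 10 most counted members. The ratio of spread to multi-exon features on edgeR's dispersion scale was 0.962 from -2 to 0, 1.16 from 2 to 4 and 1.44 from 8 to 10. Without 1 library the ratio of SDs ran from 0.872 to 0.9997, 0.931 to 0.995, 1.14 to 1.22, 1.07 to 1.18, 1.12 to 1.31 and 1.60 to 1.84 over the 6 steps from low to high. Of 13 members whose fold change was followed, 1 changed sign, a 457-base feature at chr11:36049570-36050026. Its log2 fold change was -0.038, with 0.17 under limma and -0.22 to 0.12 without 1 library. The log2 fold change of the 2390-base feature on chromosome 2 went from -0.98 to -0.20 without saline library 4. That of a 934-base feature at chr4:246879802-246880735 went from 0.42 to 0.73 under limma, 0.18 without oxytocin 4, 0.19 without saline 4 and 0.84 without saline 5. The causes were not tested. No paired analysis was possible because the labels give no replicate numbers that join a saline library to an oxytocin library. Depth limits the members with few counts, which is most of them.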

Other observations

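Short members inside same-strand introns were lower after oxytocin as a summed level, a difference noticed in the values and given without a test. The 308 members summed to 10.9 to 13.0 CPM in the oxytocin libraries and to 13.3 to 15.1 CPM in the saline libraries, which did not overlap (12.3 ± 0.81 and 14.4 ± 0.72 CPM, SD, n = 5 each). These sums rest on 236 to 382 counts in a library. Of the 308, 3 carried 2147 of the 2822 counts. The sums of those 3 overlapped, at 8.77 to 10.4 CPM after oxytocin and 9.81 to 11.1 CPM after saline. Without those 3 the sums were 2.13 to 3.31 and 3.503 to 4.24 CPM, on 51 to 88 counts in a library, and again did not overlap. The 3 were a 101-base feature at chr10:94728205-94728305, a 78-base feature at chr5:61562680-61562757 and a 79-base feature at chr10:12981495-12981573, with log2 fold changes of -0.26, 0.05 and -0.05 (edgeR adjusted p = 0.9997 for each). The 260 host features together had overlapping ranges, at 22421 ± 73.4 and 22500 ± 345 CPM (SD, n = 5 each). Short members in opposite-strand introns summed to 4.21 ± 0.66 and 4.25 ± 0.50 CPM, and those outside other features to 123 ± 3.94 and 125 ± 5.44 CPM (SD, n = 5 each), both with overlapping ranges. Library depth moved with the group, since the deepest libraries were in the oxytocin group. With each library thinned to 18555172 counts, 27.9 to 32.5 of the 308 were expected to be detected after oxytocin and 32.1 to 46.2 after saline, and these ranges overlap. They also overlap for the short members of the other 3 placements. Over all short members together the thinned ranges were 155 to 168 and 172 to 196, which do not overlap, while without thinning they were 160 to 197 and 176 to 206. The summed level of all short members overlapped as well, at 141 to 148 CPM after oxytocin and 142 to 157 CPM after saline.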
